A study of Mus musculus with 108 samples.

Results

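RNA captured on oligo(dT) was compared with RNA sequenced without that selection in control mouse oocytes at the germinal vesicle (GV) stage, the prophase-arrested stage before meiosis resumes. The members were chosen by their titles: 7 polyA libraries and 8 RiboMinus libraries, 15 of the 108 samples of the series. Each library was made from a single oocyte. The polyA oocytes came from control females V856 (3 oocytes) and V889 (4 oocytes), and the RiboMinus oocytes from control females V1132 (4 oocytes) and V1133 (4 oocytes). For polyA libraries each oocyte was lysed, RNA with a poly(A) tail was held on oligo(dT) beads, and the cDNA was amplified and built into Nextera libraries. RiboMinus libraries were made with the Ovation Solo system, with random hexamers priming the reverse transcription. The series studies oocytes that lack Exosc10, which encodes a ribonuclease of the nuclear RNA exosome. The labels call the genotypes control and oocyte-specific knockout (cKO), and give neither the driver of the deletion nor strain or age. Capture, priming, amplification and females all changed together between the library types, so their parts in any difference cannot be told apart.

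A fully grown oocyte is nearly silent in transcription and lives on mRNA stored during growth. Part of that store is dormant: it carries a short poly(A) tail, and a cytoplasmic polyadenylation element (CPE) in the 3′ end directs lengthening of the tail and translation during meiotic maturation. Other RNAs have no poly(A) tail at all, among them replication-dependent histone mRNAs, which end in a stem-loop, and small structured RNAs of RNA polymerase III, which end in a run of U.

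Sequences of some members are printed for the letters they hold. All are given 5′ to 3′ as DNA letters on the RNA's own strand, from GENCODE M21 transcripts on GRCm38. The first set is of RNAs with 0 or nearly 0 counts in polyA libraries. Capitals mark the terminal T run of the Y RNAs, the box C core and box D of the small nucleolar RNA (snoRNA), and the anticodon of the mitochondrial alanine tRNA.
Rny1 (chr6:47788069-47788180, minus strand): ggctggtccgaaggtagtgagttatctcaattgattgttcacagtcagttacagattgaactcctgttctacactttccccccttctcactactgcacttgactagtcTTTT
Rny3 (chr6:47781624-47781725, plus strand): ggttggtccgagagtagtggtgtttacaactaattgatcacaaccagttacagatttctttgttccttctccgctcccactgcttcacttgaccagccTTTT
Snord15b (chr7:99479563-99479707, minus strand): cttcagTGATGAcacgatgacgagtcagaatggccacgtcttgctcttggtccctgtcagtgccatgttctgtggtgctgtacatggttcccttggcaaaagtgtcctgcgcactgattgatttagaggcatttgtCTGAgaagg
mt-Ta (chrM:5018-5086, minus strand): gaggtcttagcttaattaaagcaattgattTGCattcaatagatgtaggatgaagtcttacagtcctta

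The second set holds 30 bases around the histone stem-loop, with the 16 stem-loop letters in capitals. Hist1h3f, Hist4h4 and Hist1h3a were among the lowest histone genes in polyA relative to RiboMinus, and Hist3h2ba went the other way with the same letters as Hist1h3a. The annotated transcripts run on past these windows, by 28 bases in Hist1h3a, 160 in Hist3h2ba, 356 in Hist1h3f and 2436 in Hist4h4.
Hist1h3f (chr13:23544927-23544956, plus strand): aaaacGGCTCTTTTAAGAGCCacctccatt
Hist4h4 (chr6:136803989-136804018, minus strand): acaaaGGCCCTTTTCAGGGCCcacaaagca
Hist1h3a (chr13:23761881-23761910, minus strand): ccaaaGGCTCTTTTCAGAGCCacacacgat
Hist3h2ba (chr11:58949344-58949373, plus strand): ccaaaGGCTCTTTTCAGAGCCaccttccaa

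The third set holds 30 bases from the last part of stored mRNAs, with CPE letters (TTTTAT or TTTTAAT) and the poly(A) signal (AATAAA or ATTAAA) in capitals. In Dcp1a these letters overlap. Dcp1a, Pan2 and Spin1 are on the list of dormant mRNAs, and Gdf9, H1foo, Zp2 and Padi6 on the list of growth-phase mRNAs. The first 5 hold CPE letters in their last 100 bases and the last 2 do not.
Dcp1a (chr14:30527011-30527040, plus strand): aaatatatttTTTTAATAAAatttcaaaac
Pan2 (chr10:128321309-128321338, plus strand): acagcatgTTTTATaaAATAAAagtatttt
Spin1 (chr13:51152473-51152502, plus strand): tctgtaagtaatTTTTATaattatgatgta
Gdf9 (chr11:53437862-53437891, plus strand): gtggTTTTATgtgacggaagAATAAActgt
H1foo (chr6:115950157-115950186, plus strand): cgattctgaagcTTTTATtgtctaataagc
Zp2 (chr7:120132360-120132389, minus strand): attggacttgcaAATAAAgagactgcagtt
Padi6 (chr4:140727361-140727390, minus strand): tgccatagagccAATAAAgcatggtattct

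Gene counts summed to 5535240 to 6700256 per polyA oocyte and 12319658 to 16800566 per RiboMinus oocyte. Rank correlations of gene levels between oocytes of one library type were 0.944 to 0.982, and between the library types 0.785 to 0.860. Oocyte genes such as Zp3 and Bmp15 stood at 349 CPM (TMM-scaled counts relative to library size) or more in all 15 oocytes, while both alpha- and both beta-globin genes were at 0. Of the other blood cell markers, Cd68, a macrophage gene, was at 0.616 to 3.74 CPM in polyA and 0.730 to 2.43 in RiboMinus. The share of counts on 14 cumulus and granulosa cell genes was 0.00535 to 0.0114% in polyA and 0.00478 to 0.00869% in RiboMinus oocytes. Cyp19a1 was the highest of them, at 22.0 to 45.9 CPM in polyA and 18.6 to 39.1 in RiboMinus. Kitl reached 23.4 CPM, Col4a1 17.8, Inhba 14.7, Hsd3b1 6.44 and Amh 6.13 in at least 1 oocyte, and the other 6 beside Inha and Kctd14 stayed at or under 2.62 in every oocyte. Inha differed between polyA females, at 13.7 to 19.4 CPM in V856 and 0 to 0.312 in V889, against 0.542 to 3.83 in RiboMinus, and Kctd14 at 8.75 to 19.97 in V856 and 0 to 0.299 in V889. The part of such cells in the results below was not tested. Exosc10, the targeted gene, averaged 49.7 ± 5.11 CPM (SD, n = 7) in control polyA oocytes against 1.23 ± 1.04 (n = 15) in cKO polyA oocytes. In RiboMinus libraries it averaged 132 ± 20.4 CPM (n = 8) in controls and 3.95 ± 2.77 (n = 7) in cKO. The counts match the genotype labels. Exosc10 was itself 2.66-fold lower in polyA than in RiboMinus controls.

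Of 14590 genes with enough counts to test, 61.2% differed between library types: 4498 were lower in polyA (30.8%) and 4436 were higher (30.4%), at a Benjamini-Hochberg adjusted p under 0.05 in edgeR's quasi-likelihood test. The difference was at least 2-fold for 2065 of the lower genes (14.2% of those tested) and 2605 of the higher genes (17.9%). All polyA oocytes lay below all RiboMinus oocytes for 2459 genes (16.9%) and above them for 2376 (16.3%). The median log2 ratio of all tested genes, polyA over RiboMinus, was -0.01. Each library type rests on 2 females whose oocytes share an animal. With counts summed per female, 3660 of 18224 tested genes were lower and 3757 higher. A gene that passed the count filter through the library type where it is high had to differ, so the counts within the lists below describe the lists and support nothing further.

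**Figure D1:**
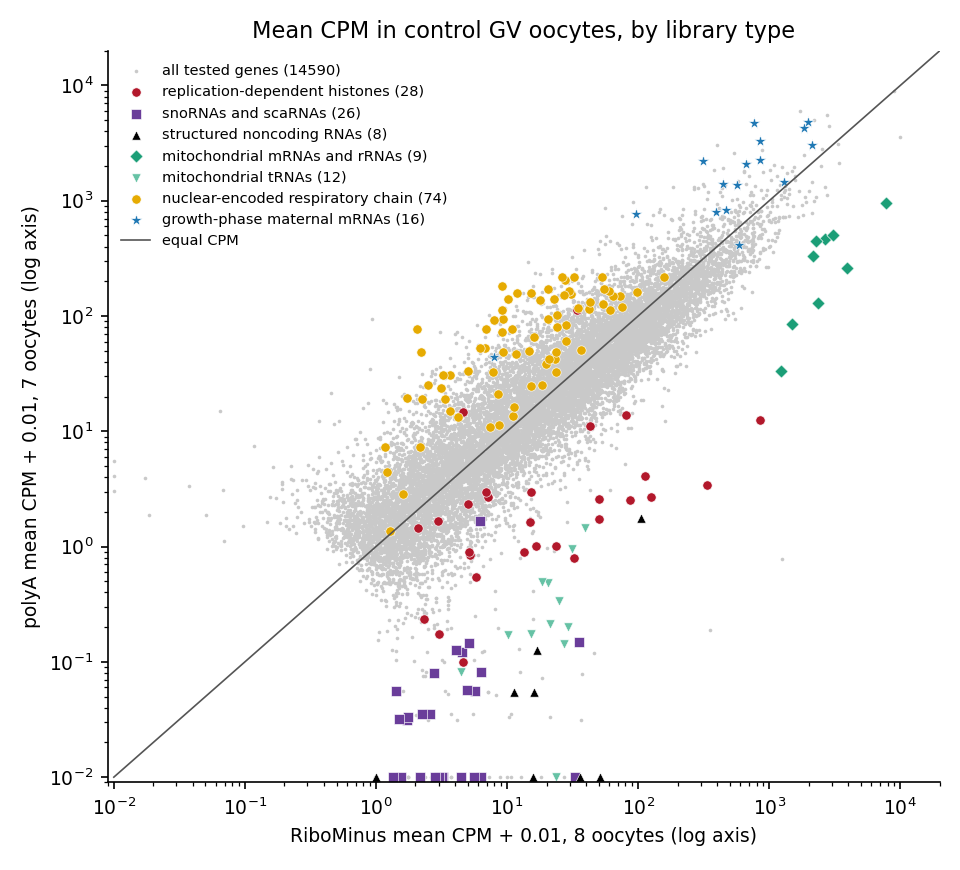
Mean CPM of each tested gene in the 8 RiboMinus oocytes (x axis) and the 7 polyA oocytes (y axis), both on log axes with 0.01 added, and gene lists in colour. Structured RNAs, snoRNAs, mitochondrial RNAs and most replication-dependent histone genes lie below the line of equal CPM, and respiratory chain genes and most growth-phase mRNAs above it.

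Small structured RNAs made outside the polyadenylation pathway were nearly missing from polyA libraries. All 8 tested of the 11 listed were lower in polyA, with a median log2 ratio of -7.89, or -7.75 with genes at 0 set to their bound. Rpph1, the RNA subunit of ribonuclease P, had 0 counts in all 7 polyA oocytes and 30.3 to 93.0 CPM in RiboMinus oocytes (median 42.4). Against a floor of 3 counts over the polyA group (0.0682 CPM), it was at least 747-fold lower. Its bases overlap Ccnb1ip1, and how such reads were assigned is not given in the sources used here.

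Vaultrc5, the RNA of the vault particle, also had 0 polyA counts in every oocyte and 16.7 to 61.1 CPM in RiboMinus (median 35.1), at least 530-fold more. The Y RNAs, partners of the Ro protein, followed the same order. Rny3 was at 0 in 7 of 7 polyA oocytes and at 6.37 to 38.8 CPM in RiboMinus (median 13.5), at least 232-fold apart. Rny1 reached at most 0.344 CPM in polyA against 6.57 to 33.2 in RiboMinus (log2 ratio -7.07 ± 0.50 SE, adjusted p = 2.36e-11). Rn7sk, which holds the elongation factor P-TEFb inactive, was at 0.623 to 3.95 CPM in polyA and 43.0 to 221 in RiboMinus (59.8-fold lower in polyA). Terc, the telomerase RNA, had 0 polyA counts and 0.292 to 1.46 CPM in RiboMinus. None of these RNAs had overlapping oocyte values. Rmrp is listed under 2 overlapping gene models that share their reads, at log2 ratios of -8.13 and -7.64.

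All 26 tested snoRNA and scaRNA genes (of 150) were lower in polyA, with a median log2 ratio of -6.53, or -5.56 with the 11 genes at 0 polyA counts set to their bound. Snord80 is listed under 2 overlapping gene models with nearly the same reads, so it counts as 2 of the 26 and of the 11. These RNAs guide modification of ribosomal and spliceosomal RNA, and most are cut from introns. Snord15b had 0 polyA counts and 20.2 to 50.7 CPM in RiboMinus, at least 488-fold apart, and lies wholly within exons of Rps3. Scarna13 had at most 0.495 CPM in polyA against 24.3 to 42.9 in RiboMinus (238-fold lower in polyA). Snora47 was nearest to equality, with 0.449 to 2.97 CPM in polyA, 3.21 to 10.0 in RiboMinus and a log2 ratio of -1.90 ± 0.34 SE. Many of these genes lie within the exons or introns of host genes, and reads from unspliced host RNA cannot be told apart from the snoRNA. Among the 9 genes with under 5% of their bases in other genes' exons, all were lower (median log2 ratio -6.01). How many snoRNA genes passed the count filter varied with the libraries used. With RiboMinus counts thinned to the polyA depth 14 of 14 tested were lower, without female V1133 12 of 12 and without V1132 16 of 16. Without polyA female V856 42 of 44 were lower, without V889 48 of 52, and with counts summed per female 56 of 61.

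The 10 genes lowest in polyA by the naming rule (called, average log2 CPM of at least 3, no overlap between oocytes, largest log2 ratio) were Rpph1, Vaultrc5, Snord15b, n-R5s136, mt-Ta, Gm10801, Gm10800, Gm26461, Rny3 and 4931408C20Rik. n-R5s136, a 5S ribosomal RNA gene with near-identical copies elsewhere, was at 0 in polyA and at 10.4 to 52.4 CPM in RiboMinus. Gm26461 was at 0 in polyA and at 9.35 to 35.5 CPM. Gm10800 and Gm10801 are neighbouring predicted genes on chromosome 2. Their RiboMinus means were 1247 ± 1577 CPM (SD) and 354 ± 455 in control oocytes, but 62.0 ± 57.2 and 16.1 ± 13.5 in cKO oocytes. Gm10800 was at 0.308 to 1.18 CPM in polyA, and at 27.7 to 77.0 in 4 RiboMinus oocytes and 789 to 4080 in the other 4, with oocytes of both females on each side. Both genes lost their calls in limma voom with female as a random block, though their ratios stayed far from equality. There the log2 ratio was -8.53 for Gm10800 (adjusted p = 0.254) and -8.64 for Gm10801 (0.307), against -10.63 and -10.83 in the main fit. 4931408C20Rik had 1 count over all polyA oocytes against 2.63 to 70.1 CPM in RiboMinus, a ratio of 1619 with a 95% counting interval of 291 to 63941.

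Replication-dependent histone genes, which package newly replicated DNA, were mostly low in polyA. Of 70 genes 28 were tested, and 24 of these were lower, 2 were higher and 2 were not called (median log2 ratio -3.34). Together they took 0.0182 to 0.0238% of polyA counts and 0.120 to 0.244% of RiboMinus counts. Hist1h3f, an H3 gene, stood at 2.45, 2.65, 3.43, 3.74, 3.85, 3.95 and 3.96 CPM in the polyA oocytes and between 205 and 476 in the RiboMinus oocytes (median 352). The groups were far apart, and the gene was 97.7-fold lower in polyA (log2 ratio -6.61 ± 0.21 SE, adjusted p = 7.23e-17). Hist1h1a, a linker histone gene, was at 5.89 to 17.4 CPM in polyA and 575 to 1236 in RiboMinus, a 68.1-fold difference. Hist4h4 was at 1.40 to 5.16 CPM against 87.7 to 152, a 46.6-fold difference. Without female V889 the Hist4h4 log2 ratio moved from -5.54 to -6.19.

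Both histone genes that went the other way encode H2B. Hist1h2bc was at 84.3 to 136 CPM in polyA and 23.0 to 53.2 in RiboMinus, 3.33-fold higher in polyA (adjusted p = 1.48e-09). Hist3h2ba was at 9.90 to 19.4 CPM in polyA and 2.62 to 8.19 in RiboMinus, 3.17-fold higher. Hist1h1c (log2 ratio -0.85) and Hist2h4 (-0.53) overlapped between library types and were not called. The histone stem-loop motif, as in the capitals printed above with any base at the 3 positions where members differ, was searched on the RNA strand of every annotated transcript. They occurred in 22 of the 14576 tested genes with a transcript (0.151%), and 19 of those were replication-dependent histone genes: 16 lower, 1 higher and 2 not called. The other 3 were Trim17 (log2 ratio -2.24), H2afx (-1.06) and Gm20634 (-1.08). The 9 histone genes without the letters were 8 lower and 1 higher (Hist1h2bc). In some of them the annotated transcript is short, at 381 bases in Hist2h2bb, 384 in Hist1h2ba and 390 in Hist1h2aa. Letters past an annotated end were not searched, so these genes cannot be said to lack a stem-loop.

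Histone variant genes, whose mRNAs are made outside S phase and mostly polyadenylated, leaned the other way. Of 11 tested, 7 were higher in polyA (63.6%), 2 lower (18.2%) and 2 not called (median log2 ratio 0.76). Among all tested genes 30.4% were higher and 30.8% lower. Only 5 of the 11 had under 5% of their exon bases in other gene models, with 4 of them higher and 0 lower. H3f3a (H3.3) was at 52.0 to 88.1 CPM in polyA and 10.9 to 21.1 in RiboMinus, 4.30-fold higher. H2afv, a variant of the H2A.Z type, was at 37.7 to 61.6 against 7.05 to 13.9 CPM, 4.31-fold higher. The 2 lower variants were H1fx and H2afy2. H1fx stood at 0.748 to 2.80 CPM in polyA against 22.6 to 41.7 in RiboMinus, 17.7-fold lower. In H1fx 19.5% of exon bases are shared with other gene models. H2afy2, a macroH2A gene, was at 0.875 to 3.54 against 3.02 to 6.47 CPM, with overlap (log2 ratio -0.79 ± 0.30 SE, adjusted p = 0.0271). Its call was lost under 7 alternatives, among them counts summed per female (log2 ratio -0.81, adjusted p = 0.133). Leaving out a female gave -0.53 without V856 (adjusted p = 0.186), -0.89 without V1132 (0.0577) and -0.69 without V1133 (0.124).

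**Figure D2:**
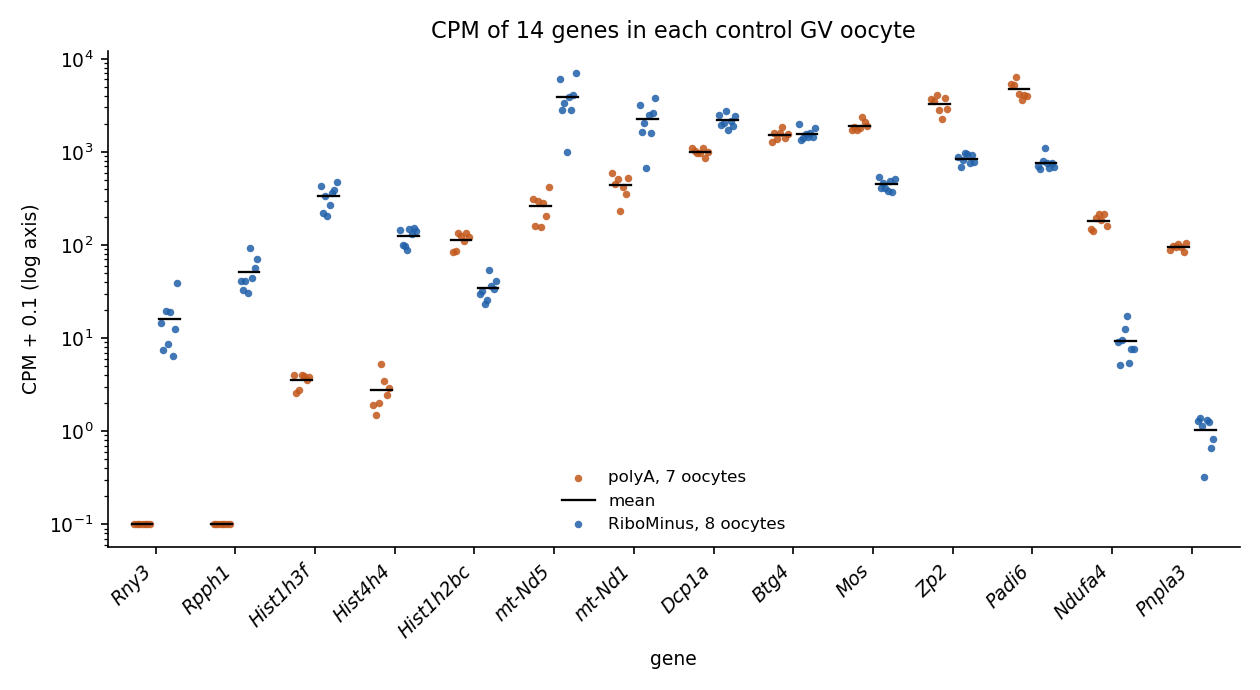
CPM (plus 0.1, log axis) of 14 genes in each of the 7 polyA and 8 RiboMinus oocytes, with the mean of each group as a bar. Rny3 and Rpph1 are at 0 in all polyA oocytes, Btg4 overlaps between library types, and the other 11 genes do not overlap.

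All tested mitochondrial RNAs were lower in polyA. Mammalian mitochondrial mRNAs carry short tails, except that in human cells the ND6 mRNA is known to lack one. The 7 tested mRNA genes (of 13) had a median log2 ratio of -3.90, and the other 6 did not pass the count filter. mt-Nd6 had the lowest ratio among them, at 19.8 to 44.1 CPM in polyA and 318 to 2097 in RiboMinus (36.9-fold lower in polyA, log2 ratio -5.20 ± 0.31 SE). It lies opposite the other mRNAs of the circle, and without a known strand setting its reads cannot be told apart from antisense RNA of the same bases. mt-Nd5 was at 155 to 415 CPM in polyA and 993.5 to 6981 in RiboMinus (15.0-fold lower). mt-Nd1 had the mildest difference, at 233 to 596 against 671 to 3825 CPM (5.10-fold lower). Both ribosomal RNAs were also lower: mt-Rnr1 6.45-fold and mt-Rnr2 8.12-fold. All 12 tested tRNA genes (of 22) were lower, with a median log2 ratio of -6.06, and mt-Ta had 0 polyA counts against 1.899 to 46.0 CPM in RiboMinus.

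Mitochondrial levels varied more between RiboMinus oocytes than most lists. The mRNA share of RiboMinus counts ran from 0.525% in oocyte V1132_4 to 2.74% in V1133_4, against 0.123 to 0.267% in polyA oocytes. V1132_4 was the lowest RiboMinus oocyte for 20 of the 21 tested mitochondrial genes and V1133_4 the highest for 18. Without V1132_4 the 7 mRNAs and 12 tRNAs were again all lower, with median log2 ratios of -4.04 and -6.23. Without female V1133, 7 tRNA genes passed the count filter and all 7 were lower. With limma voom and female as a block, 10 of the 12 were called lower.

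Malat1, a nuclear RNA whose 3′ end is a triple helix instead of a tail, was at 1.69 to 26.9 CPM in polyA and 9.23 to 105 in RiboMinus. The oocytes overlapped, and the gene was called lower (log2 ratio -1.69 ± 0.47 SE, adjusted p = 3.41e-03). The call was lost without female V889 (log2 ratio -1.05, adjusted p = 0.109). Of 3 tested nuclear long noncoding RNAs (Kcnq1ot1, Tug1 and Airn), 0 were called in either direction, and all 3 overlapped between library types. Kcnq1ot1 was called lower without female V856 (log2 ratio -0.86, adjusted p = 0.0325) and Tug1 without V889 (-0.33, adjusted p = 0.0463). Long intergenic noncoding RNAs as a class had a median log2 ratio of 0.71. Of 709 tested, 310 were higher in polyA (43.7%) and 85 lower (12.0%), against 30.4% and 30.8% of all tested genes. Their median length was 1440 bases, and the ratio varied with gene length, as given below.

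**Figure D3:**
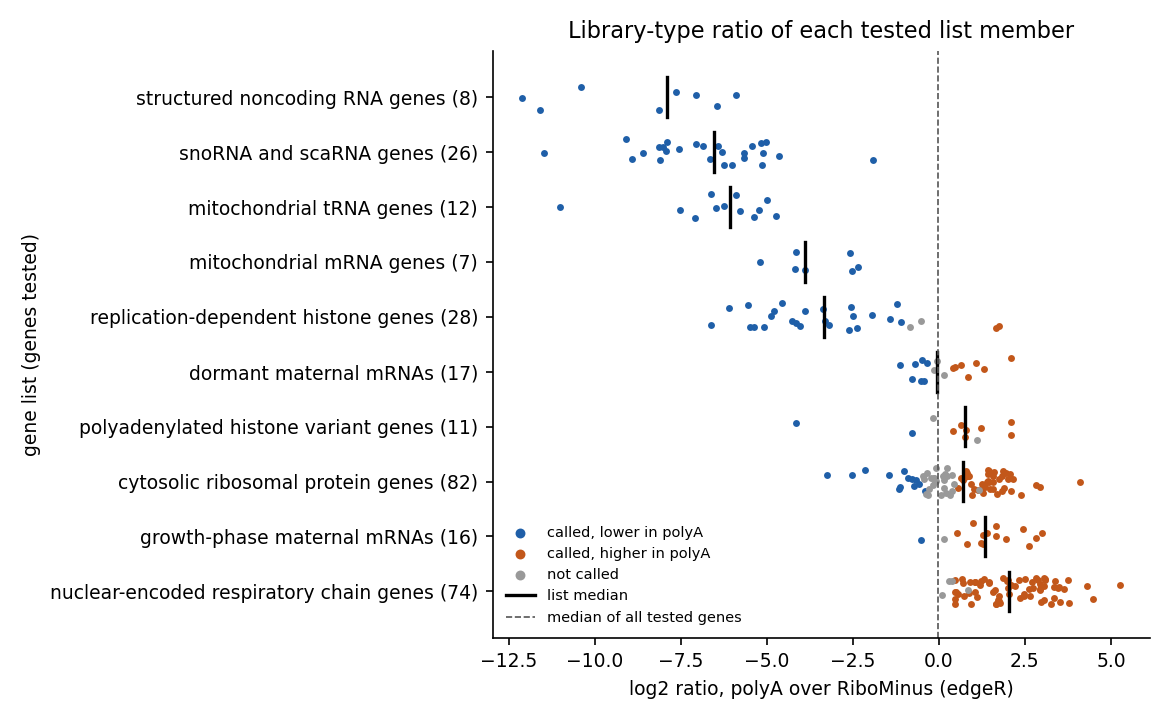
Log2 ratio of polyA over RiboMinus for each tested member of 10 gene lists, coloured by call, with list medians as bars and the median of all tested genes (-0.01) as a dashed line. Medians run from -7.89 for structured noncoding RNAs to 2.03 for respiratory chain genes.

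The 16 growth-phase mRNAs encode proteins that the growing oocyte makes in bulk, such as the zona pellucida and the subcortical maternal complex. 14 of 16 were higher in polyA, 1 was lower and 1 was not called (median log2 ratio 1.35). Zp2, a zona pellucida glycoprotein gene, was at 2246 to 4080 CPM in polyA (median 3494) and 688 to 972 in RiboMinus (median 847). The groups did not overlap, and Zp2 was 3.88-fold higher in polyA (log2 ratio 1.96 ± 0.11 SE, adjusted p = 8.42e-13). Padi6, of the cytoplasmic lattices, was 6.10-fold higher, at 3617 to 6339 against 657 to 1088 CPM. Astl, the protease that cleaves ZP2 after fertilisation, was 7.98-fold higher, at 551 to 840.9 against 75.4 to 124 CPM. Khdc3 was 7.11-fold higher, but 38.5% of its exon bases are shared with another gene model. Kpna7, an importin, was the lower member, at 340 to 473 against 540 to 622 CPM (log2 ratio -0.51). Oosp1 overlapped and was not called (0.16), but was called higher without female V856 (0.41, adjusted p = 0.00831) and stood at -0.28, not called, without V889.

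Dormant mRNAs are known for translation that rises after meiosis resumes. Of 17 on the list, 7 were lower in polyA (41.2%), 7 were higher (41.2%) and 3 were not called (median log2 ratio -0.05), against 30.8% lower and 30.4% higher among all tested genes. Dcp1a, an mRNA decapping factor, was at 864 to 1109 CPM in polyA and 1737 to 2735 in RiboMinus, 2.17-fold lower in polyA (log2 ratio -1.12 ± 0.10 SE, adjusted p = 6.90e-10). Dcp2, the decapping enzyme, was 1.72-fold lower and Tpx2, a spindle assembly factor, 1.62-fold lower, both without overlap. Cnot7 and Cnot6l, deadenylase subunits, had log2 ratios of -0.42 and -0.53 with overlapping oocytes. Btg4, an adaptor of the deadenylase, was at 1270 to 1849 CPM in polyA and 1336 to 1984 in RiboMinus (log2 ratio -0.05). Plat (0.16) and Cdc6 (-0.13) were likewise not called. Mos, the kinase that keeps eggs in metaphase arrest, was 4.30-fold higher in polyA, at 1706 to 2385 against 371 to 533 CPM. Orc6 and Hprt were 2.48-fold and 2.13-fold higher.

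Nuclear-encoded subunits of the respiratory chain were the list with the highest median ratio of the 20 examined, at 2.03. 70 of 74 tested genes were higher in polyA, 0 were lower and 4 were not called. Atp5o is listed under 2 overlapping gene models and counts as 2 of the 70. Uqcr11, of complex III, was at 68.2 to 89.4 CPM in polyA and 1.06 to 4.10 in RiboMinus (38.3-fold higher, adjusted p = 4.36e-15). Ndufa1, of complex I, was at 39.4 to 60.8 against 1.13 to 3.87 CPM. Ndufa4 was at 141 to 217 against 5.01 to 17.2 CPM (19.7-fold higher). The 4 that were not called, Atp5g2 (log2 ratio 0.09), Ndufa12 (0.30), Atp5g3 (0.38) and Atp5l (0.84), overlapped between library types. Cytosolic ribosomal protein genes were mixed, with 43 of 82 higher (52.4%), 13 lower (15.9%) and a median log2 ratio of 0.71. Among all tested genes 30.4% were higher and 30.8% lower. Rplp1 was 7.74-fold and Rps14 7.10-fold higher in polyA, while Rps12, which shares exon bases with snoRNA genes, was 9.57-fold lower. Over the 53 ribosomal protein genes with under 5% of bases shared, 30 were higher and 5 lower. Of all 10610 tested genes under that limit, 3038 were higher and 3430 lower.

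The 10 genes highest in polyA by the naming rule were Pnpla3, Gm49513, Rnase6, Uqcr11, Timm10, Ndufa1, Chchd2, March11, Ndufa4 and Psmb5. Pnpla3, a lipid droplet acylhydrolase, was at 83.8 to 105 CPM in polyA and 0.219 to 1.28 in RiboMinus, 100.8-fold higher (log2 ratio 6.66 ± 0.20 SE, adjusted p = 2.18e-17). Gm49513 shares 71.3% of its exon bases with Pnpla3 and Samm50, so its 47.7-fold difference is uncertain. Psmb5, a catalytic proteasome subunit, was at 25.1 to 33.8 against 0.503 to 2.10 CPM. Rnase6, a secreted ribonuclease, was 39.4-fold higher, and its log2 ratio moved from 5.30 to 4.24 without female V889. Timm10, a chaperone of mitochondrial import, differed between polyA females: 17.3 to 21.8 CPM in the 3 oocytes of V856 and 91.1 to 128 in the 4 of V889, against 1.65 to 4.31 in RiboMinus. Without V889 its log2 ratio fell from 4.53 to 2.64.

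Among the 10 genes with the largest counts, Zbed3 led the RiboMinus libraries with 0.981% of counts and took 0.366% of polyA counts (2.78-fold lower in polyA). Nlrp14, AY036118, Gdf9, Padi6, H1foo and Zp2 were among the first 10 in polyA only. mt-Rnr2, mt-Nd5, Dnmt1, Rdx, mt-Cytb and Tet3 were among the first 10 in RiboMinus only. Dnmt1, the maintenance DNA methyltransferase, was 1.59-fold lower in polyA. CT010467.1, annotated as ribosomal RNA, took 0.914% of polyA and 0.876% of RiboMinus counts and overlaps 2 other gene models, Gm42418 and AY036118, so its counts are uncertain.

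The ratio varied with gene length. Protein-coding genes were divided into 10 bins by exon length. The shortest bin (105 to 1730 bases, 1213 genes) had a median log2 ratio of 1.01, with 62.7% of genes higher in polyA and 10.1% lower. The longest bin (10223 to 123179 bases, 1213 genes) had a median of -0.51, with 9.81% higher and 57.5% lower. Medians fell at each step between them. Over 10 bins of GC content they ran only from -0.17 to 0.14, and over 10 bins of mean CPM from 0.08 to -0.26. Set against the median of its own length bin, 66 of 74 respiratory chain genes were above (median difference 1.33), as were 13 of 16 growth-phase mRNAs (0.94). Ribosomal protein genes were 41 above and 41 below (-0.01), and dormant mRNAs 11 above and 6 below (0.04). Histone variant genes were 8 above and 3 below (0.51). Long intergenic noncoding RNAs (median length 1440 bases) had a median log2 ratio of 0.71, against 1.01 in the shortest protein-coding bin.

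**Figure D4:**
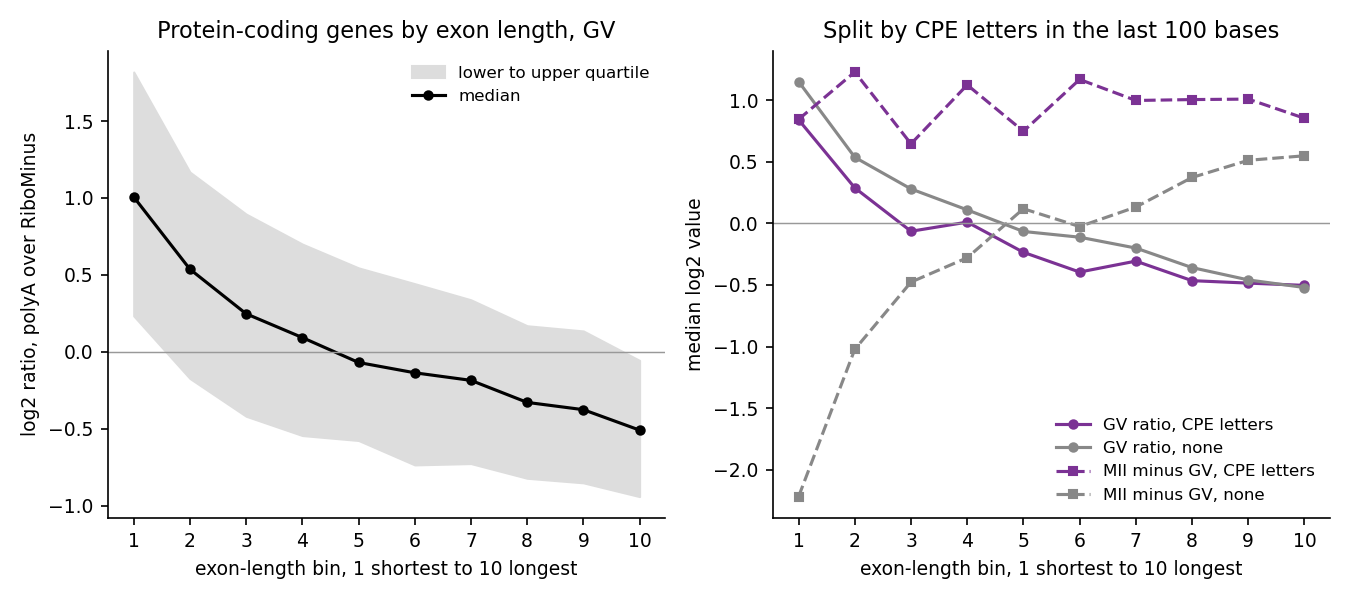
Left: median and quartiles of the log2 ratio, polyA over RiboMinus, in 10 bins of exon length of protein-coding genes at GV, falling from 1.01 to -0.51. Right: medians for genes with a poly(A) signal split by CPE letters in the last 100 bases, as the GV ratio (solid) and as the MII minus GV difference of the ratio (dashed). The dashed line with CPE letters lies above the dashed line without them in all 10 bins.

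CPE letters were searched on the RNA strand of the last 100 bases of each gene's longest transcript, for the 8610 tested protein-coding genes with a poly(A) signal in the last 40 bases. 1762 of them (20.5%) held TTTTAT or TTTTAAT, which in 214 genes overlapped the poly(A) signal. Their median log2 ratio at GV was -0.22, with 39.8% lower and 22.8% higher in polyA. Genes without the letters had a median of -0.04, with 32.0% lower and 30.4% higher. In the shortest of 10 length bins the medians were 0.84 and 1.15, and in the longest -0.50 and -0.52. A match is a description of letters, not a functional site. Over the last 200 bases the medians were -0.24 and -0.01.

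The same ratio was taken in control MII eggs, which had completed maturation to the second metaphase and were dissected from oviducts. There were 8 polyA eggs from 3 females and 3 RiboMinus eggs from 1 female, so the RiboMinus side rests on one animal. Of 15910 genes, 3894 had a higher ratio at MII than at GV (24.5%) and 3997 a lower one (25.1%), from the interaction of stage and library type in edgeR. With library totals in place of TMM factors the split was 2718 higher and 5320 lower, and the median of all genes moved from -0.04 to -0.52. 15 of 17 dormant mRNAs had a higher ratio at MII and 0 a lower one, with a median difference of 1.87. With library totals 12 were higher and 2, Cdc6 and Dcp2, were lower. Dcp1a went from -1.12 to 0.81, Pan2 from -0.34 to 2.81, Btg4 from -0.05 to 2.40 and Mos from 2.10 to 5.11.

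Growth-phase mRNAs went mostly the other way: 11 of 16 had a lower ratio at MII and 3 a higher one (13 and 3 with library totals), with a median difference of -1.71. Zp2 went from 1.96 to -0.84, Ooep from 1.66 to -3.40 and Figla from 2.46 to -2.81. Astl stayed high, at 3.00 and 2.79, with a difference of -0.17 that was not called (-0.65 with library totals, adjusted p = 0.0144). The 3 that rose were H1foo (1.23 to 4.77), Gdf9 (1.30 to 2.87) and Oosp1 (0.16 to 2.51). H1foo and Gdf9 are the 2 of the list with CPE letters in the last 100 bases. On the dormant list 5 mRNAs hold them, all with a higher ratio at MII. Dormant mRNAs without the letters rose as well, among them Tex19.1 (difference 3.85), Plat (3.48) and Mos (3.04). Of the dormant mRNAs without them, only Cdc6 (-0.43) and Dcp2 (-0.31) were not called. The stage difference also varied with length. Its median over protein-coding genes rose from -1.85 in the shortest of the 10 length bins to 0.58 in the longest. The growth-phase list is short (median 2094 bases, against 4677 for the dormant list). Set against their own length bins, 12 of 16 growth-phase mRNAs were below (median -1.02) and 15 of 17 dormant mRNAs above (1.66). In 2 other short lists the ratio was also lower at MII, for 68 of 74 respiratory chain genes, 67 of 74 below their bin (median -2.51), and for 69 of 82 ribosomal protein genes, 69 below their bin (-2.27). Of the short mitochondrial lists, 2 went the other way. The ratio was higher at MII for 7 of 7 mRNAs (median difference 1.72) and 6 of 12 tRNAs (2.004), and lower for 0. The 2 mitochondrial ribosomal RNAs were called in neither direction (0.15).

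Across all protein-coding genes with a poly(A) signal, the median MII minus GV difference was 0.97 with CPE letters and -0.07 without, and 0.49 and -0.55 with library totals.

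**Figure D5:**
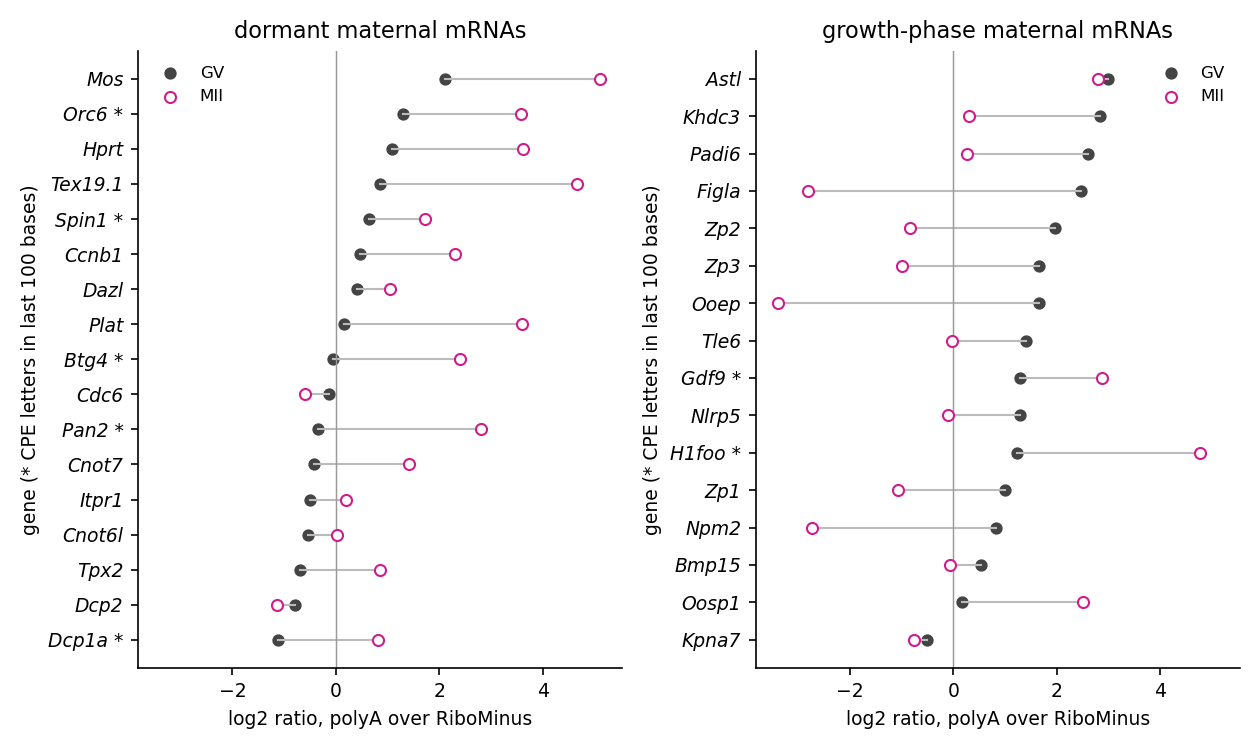
Log2 ratio of polyA over RiboMinus at GV (filled) and MII (open) for the 17 dormant and 16 growth-phase mRNAs, with genes that hold CPE letters marked by an asterisk. Of the dormant mRNAs, 15 moved to the right by the test, and of the growth-phase mRNAs 11 moved to the left and H1foo, Gdf9 and Oosp1 to the right.

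The comparison was repeated in cKO oocytes at GV (15 polyA and 7 RiboMinus oocytes), which share no library with the controls. There 4050 of 14911 genes were lower in polyA (27.2%) and 4237 higher (28.4%). With counts summed per female, only 618 of 21087 were lower and 574 higher. Over the 13833 genes tested in both genotypes the ratios had a rank correlation of 0.883. Of 4329 genes lower in control polyA, 3344 (77.2%) were lower in cKO and 13 were higher, and 84.3% of the cKO lower calls were lower in controls. Of 4345 higher genes, 3297 (75.9%) were higher in cKO and 21 lower. Median log2 ratios in control and cKO were -3.34 and -3.15 for the histone list, -3.90 and -2.36 for mitochondrial mRNAs, 1.35 and 1.02 for growth-phase mRNAs and 2.03 and 1.94 for respiratory chain genes. The difference between genotypes was not tested.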

How the data were processed

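The deposited gene files hold raw read counts per Ensembl mouse gene, 1 library per file, with no normalization by the authors. Per the submitters' processing notes the build was mm10 and the tools included cutadapt 2.5, STAR 2.7.2a and HTSeq 0.9.1. Annotation release, strand setting and handling of multi-mapped reads are not given in the sources used here. Reads outside genes (8.34 to 12.0% in control GV libraries) and ambiguous reads (2.07 to 3.06%) were left out of library sizes. Gene files had 0 lines for the ERCC spike-in, so every value is relative within its library. Symbols, lengths and 3′ ends came from GENCODE M21 (55394 of 55573 gene IDs matched).

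In R 4.3.3, edgeR 4.0.16 was used: filterByExpr for low counts, TMM for scaling, and glmQLFit with glmQLFTest for a two-sided test, using only the groups compared, with Benjamini-Hochberg adjustment over all tested genes. The oocyte was the replicate, and p-values measure the spread between oocytes of 2 females per library type. The script was tested on simulated data. CPM values are TMM-scaled. SE is the log2 ratio over the square root of F. Bounds use 3 counts over the group, and 95% intervals are exact Poisson, for counting error only.

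The members, the 20 lists and the tests were chosen with earlier results of these data known. Named genes were, per direction, the 10 largest log2 ratios among called genes whose average log2 CPM reached 3 and whose oocyte ranges were separate, the 10 genes with the highest mean CPM per library type, genes of the lists, and Exosc10. Alternatives were the DESeq2 1.42.0 Wald test, DESeq2 size factors, library totals, TMM without mitochondrial and structured RNAs, no count filter, a stricter filter (mean count 50), sums over each female's oocytes, voom in limma 3.58.1 with a random effect of female, RiboMinus counts thinned to 6417157, and leaving out each female. Added after seeing the data were leaving out RiboMinus oocyte V1132_4, genes with under 5% shared exon bases, a 200-base CPE window, bins of mean CPM and length bins for the stage difference. 1 item is not reported here.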

Additional observations from a re-analysis of the deposited data

Results flagged for a closer look

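Over both library types, 182 groups of oocyte values (named genes and list shares) were examined for 1 oocyte far from the rest. Of these, 7 had one. Chance gives about 1 in 20, as a rough guide only, since the groups come from the same oocytes and are not independent. Rny3 was at 38.8 CPM in RiboMinus oocyte V1133_4, with the next oocyte at 19.5. 4931408C20Rik had its only polyA count in V856_4 (0.147 CPM). Astl was at 551 CPM in polyA oocyte V889_2, with the next at 761. Padi6 was at 1088 CPM in RiboMinus oocyte V1132_4, with the next at 799. RiboMinus oocyte V1133_1 had the highest share of counts on spliceosomal and other U-RNA genes (0.00368%, next 0.00200%) and on snoRNA host genes (0.0112%, next 0.00779%). V1132_4 had the lowest share on opposite-strand noncoding genes (0.121%, next 0.131%).

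The polyA to RiboMinus ratio differed between GV and MII controls, by the interaction term, for 15 dormant and 14 growth-phase mRNAs.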

How the results depend on the processing

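In control GV oocytes, counts of genes lower and higher in polyA stayed within 1.5 times of the reported ones under every alternative fit. They ran from 3660 to 5187 lower and 3582 to 5160 higher. Genes tested ran from 10510 (mean count 50) to 32406 (no count filter), against 14590 in the main fit, so the shares moved more. Summed per female, 3660 of 18224 tested genes were lower. Among genes with under 5% shared exon bases, 3430 of 10610 were lower and 3038 higher. Leaving out 1 female or oocyte V1132_4 gave 3821 to 4614 lower and 3582 to 4342 higher, and 1809 to 2507 and 2221 to 2654 at 2-fold or more. In cKO oocytes, counts summed per female gave 618 lower and 574 higher of 21087 tested genes, with 4 females in all. The cause was not tested. With library totals the cKO median moved from 0.02 to 0.16. For 348 genes of the lists and rules, 4546 of 4675 gene and setting pairs kept direction and call, 94 lost the call, 32 gained it and 3 turned. Those 3 pairs belong to 2 cumulus cell genes: leaving out 1 female put Inha between -3.94 (without V856) and 3.10 (without V889) and Kctd14 between -4.93 and 2.22, and limma voom put Inha at -0.39. Of 722 list medians and counts, 96 moved by more than the spread or 1.5 times. For histones the median ran from -4.00 (mean of at least 50 counts) to -2.92 (without V1133), and with no count filter 42 of 62 were lower. With no filter 74 of 117 snoRNA genes were lower and with a mean of at least 50 counts 3 of 3. No paired analysis was possible because the polyA and RiboMinus oocytes came from different females, and the oocyte numbers in the labels count within a female. RiboMinus libraries were deeper, which limits polyA values near 0.0682 CPM.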

Other observations

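Of 13 tested genes that host snoRNAs in their introns, 5 were lower in polyA (38.5%), 4 higher (30.8%) and 4 not called, against 30.8% lower and 30.4% higher among all tested genes. Snhg20 (log2 ratio -4.996) and Snhg12 (-4.84) were at or under 0.330 CPM in every polyA oocyte, while Snhg6 was at 12.0 to 25.4 CPM in polyA against 0.972 to 4.32 in RiboMinus (log2 ratio 2.71). Of the 13 hosts, 10 have 5% or more of their exon bases in other gene models: 5 lower, 2 higher and 3 not called.

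Of 19 tested genes with symbols that start with Mir, 7 were lower in polyA (36.8%) and 5 higher (26.3%), near the shares of all tested genes, and 17 have 5% or more of their bases in exons of other genes. Mir686, within Psmb5, had 0 RiboMinus counts in 8 oocytes and 2.97 to 5.77 CPM in polyA, and Mir1291 had 0 polyA counts and 2.19 to 5.81 CPM in RiboMinus. Reads of the longer overlapping RNA cannot be told apart from a hairpin there.

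Of 279 Zfp zinc finger genes, 66 were lower in polyA (23.7%) and 51 higher (18.3%), against 30.8% and 30.4% of all tested genes, with a median log2 ratio of -0.02. 4931408C20Rik had a fitted log2 ratio of -10.07 at GV and 9.67 at MII, where the RiboMinus eggs came from 1 female. Its GV value rests on 1 polyA count, and the stage difference of 19.7 had an SE of 3.37. In cKO GV oocytes its log2 ratio was -1.79, with polyA values of 17.8 ± 23.0 CPM (SD, n = 15).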
